A study of Mus musculus with 9 samples.

Results

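Positive selection without self-antigen was examined by setting Nr4a1-/- Nr4a3-/- double knockout (DKO) thymocytes beside control thymocytes that had developed in the thymus of wild-type (WT) hosts. Both carried the OT-II transgene, which encodes a T cell receptor (TCR) for a peptide of ovalbumin, and WT hosts make no ovalbumin. The comparison used 5 of the 9 RNA-seq libraries of the series: 3 labelled DKO and 2 labelled OT-II control. Each library came from a separate host mouse within its group, n = 3 against n = 2. Expression was given as RPKM, that is, exonic reads scaled by gene length and library size, and a gene was kept if its RPKM was at least 1 in at least 2 of the 9 libraries. This left 11569 of the 24594 genes in the table, and 10497 genes met the same limit within the 5 WT-host libraries alone.

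The control donor had the genotype Nr4a1+/+ Nr4a3+/+ on an F1 background, from a cross of B6.Cg-Tg(TcraTcrb)425Cbn/J with BoyJ, and the DKO donor was Nr4a1-/- Nr4a3-/- on C57BL/6. Genotype and donor background therefore cannot be told apart in any comparison here. All WT hosts were BoyJ mice, irradiated and reconstituted for 4.7 weeks with control marrow, DKO marrow and non-transgenic wild-type marrow, of which the transgenic donors gave 1 part each and the wild type 3 parts. Donor cells were separated by congenic marker and sorted as CD4+ CD8- CD69+ Vα2+ Vβ5+, which are semimature CD4 single-positive (SP4) cells. DKO libraries 1 and 2 shared a host mouse with OT-II libraries 1 and 2 respectively, while DKO library 3 came from a mouse with no OT-II library. The other 4 libraries, 2 of each genotype, came from RIPmOVA hosts, in which the rat insulin promoter drives membrane-bound ovalbumin. They do not enter the WT-host fold changes and serve below as a second set for the same genotype contrast. All 9 libraries were fitted in 1 model, however. The WT-host p-values therefore also draw on the spread of the RIPmOVA-host libraries.

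NR4A1, NR4A2 and NR4A3 are orphan nuclear receptors that T cells switch on as immediate-early genes when their TCR is engaged. In the thymus a weak TCR signal from self-peptide lets a double-positive cell survive and mature, and a strong one leads to deletion or to the regulatory T (Treg) lineage. CD69 marks cells that have recently received such a signal and have not yet left the medulla. Nr4a1 and Nr4a3 are known for their part in deletion under strong signals. WT hosts give the genotype difference in cells that developed without ovalbumin, though they still met endogenous self-peptides.

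The libraries held 15521445 to 25051940 reads by the depth recovered from the RPKM values, and 3 reads on a gene of 1 kb corresponded to 0.12 to 0.193 RPKM. The sorted phenotype was seen in the data, with Cd4 at 241 and 225 RPKM in OT-II cells and at 217, 239 and 224 RPKM in DKO-labelled cells. The activation marker Cd69 was at 83.4 and 83.2 RPKM in OT-II cells and at 82.6, 76.2 and 77.6 RPKM in DKO-labelled cells. Summed RPKM of the 6 double-positive markers (Cd8b1, Dntt, Cd8a, Rag1 and others) was 113 to 122 in all 5 libraries. It rested mainly on Cd8b1 and Dntt, the only 2 of them with at least 5 RPKM in 2 or more of the 9 libraries. The summed RPKM of B cell markers was 2.82 to 6.44. Myeloid markers summed to 30.8 and 37.7 RPKM in OT-II cells and 27.9 to 31.2 in DKO-labelled cells, and erythroid markers to 21.0 and 25.3 RPKM in OT-II library 2 and DKO library 3 against 1.23 to 2.98 in the other 3. In bulk RNA, fewer cells of a type and less RNA per cell cannot be told apart. Reads on sensory receptor genes, which thymocytes should not express, made up 0.115% and 0.0518% of reads in OT-II cells and 0.042% to 0.106% in DKO-labelled cells, so the groups overlapped.

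Gene-level values did not separate the Nr4a1 genotypes. Nr4a1 was at 60.7 and 86.1 RPKM in OT-II cells and at 60.1, 80.2 and 87.7 RPKM in DKO-labelled cells, a log2 fold change of 0.05 (SE 0.19) with an adjusted p of 0.968 by limma, and the sign turned with the host mouse as a block (-0.06). Nr4a3 was near the floor in both groups, at 0.181 and 0.189 RPKM against 0.294, 0.665 and 0.188 RPKM. Nr4a2 was also low, at 0.152 and 0.123 RPKM against 0.355, 0.319 and 0.22 RPKM. In RIPmOVA hosts Nr4a3 was called higher in DKO-labelled cells, at 5.66 and 3.72 RPKM in OT-II cells and 16.5 and 14.1 RPKM in DKO-labelled cells (log2 fold change 1.63, adjusted p = 0.0238). Nr4a1 had a log2 fold change of 0.08 there (adjusted p = 0.862) and Nr4a2 1.12 (adjusted p = 0.129). Reads summed over all exons do not show whether a deleted part of a gene is covered, so these values do not check the labels and the libraries are called DKO-labelled here.

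Few genes were called. A gene was called when its Benjamini-Hochberg adjusted p from limma was 0.05 or less and its log2 fold change, on the scale of log2(RPKM + 0.5), was at least 1 in size. In WT hosts 7 of 11569 genes were called (0.0605%), of which 6 were lower in DKO-labelled cells (0.0519%) and 1 was higher (0.00864%). Those lower were Acvrl1, Smarcd1, Itih5, Mir16-2, Bcl2l11 and Foxn3, and Car11 was the one higher. The median log2 fold change of all genes was 0.01, with a median standard error of 0.15. At an unadjusted p under 0.05 there were 421 genes lower (3.64%) and 492 higher (4.25%). Values of the 2 groups did not overlap for 1189 genes with DKO-labelled libraries lower (10.3%) and 1212 with them higher (10.5%), together 20.8% of genes. Counts rested on single libraries. Without OT-II library 2 the number called was 100, of which 77 were higher, and without DKO library 1 it was 10, of which 4 were higher. With the host mouse as a fixed block, 2 genes were called, Acvrl1 and Smarcd1. Under this block DKO library 3 adds nothing to the difference because it has no partner. The fit of the 5 WT-host libraries alone called the same 2 genes.

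**Figure D1:**
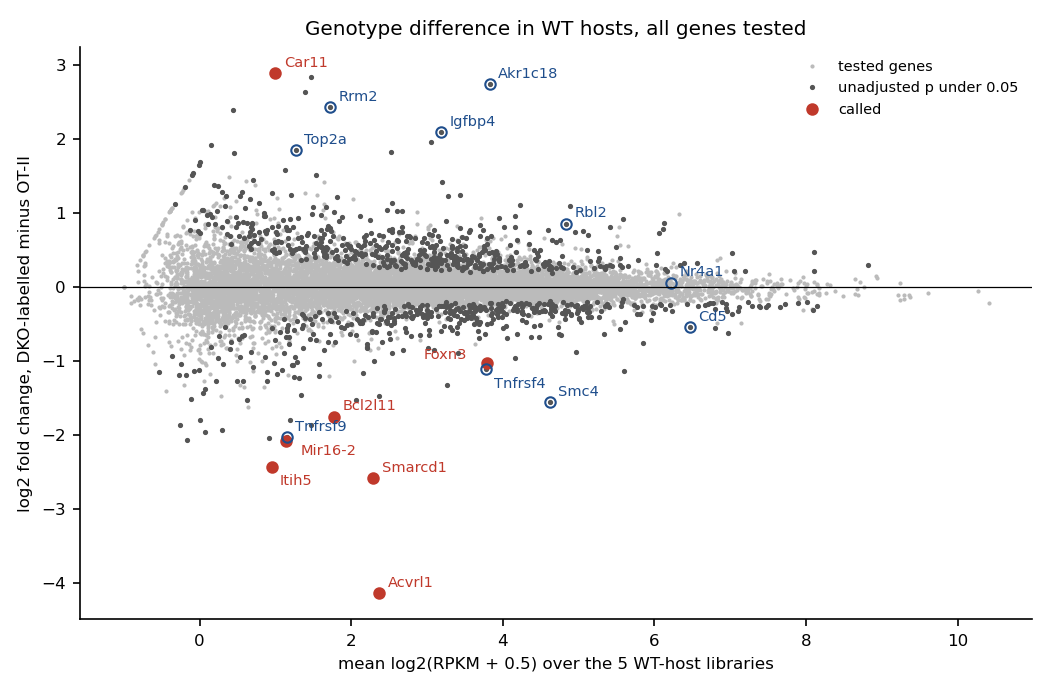
Each dot is 1 of the 11569 genes tested in WT hosts. The x axis is the mean log2(RPKM + 0.5) over the 5 libraries and the y axis the log2 fold change of DKO-labelled against OT-II cells. Red dots are the 7 genes called, dark dots the 913 genes at an unadjusted p under 0.05, and blue circles mark other genes named in the text. Acvrl1 is lowest at -4.14 and Car11 highest of those called at 2.89.

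Acvrl1, which encodes the type I receptor ALK1 of the TGF-β and BMP family, had the lowest log2 fold change of the genes called. It was at 25.7 and 31.3 RPKM in OT-II cells and at 0.984, 1.48 and 0.996 RPKM in DKO-labelled cells. All DKO-labelled libraries were far below both OT-II libraries, with group means of 28.5 ± 3.94 RPKM (SD, n = 2) and 1.15 ± 0.285 RPKM (SD, n = 3). The log2 fold change was -4.14 (SE 0.17, adjusted p = 1.22e-05, limma), and the call was made under all 19 alternative settings that gave it a value, including the host-mouse block (adjusted p = 0.00119). Acvrl1 (Entrez 11482) lies on chromosome 15 at 101128522 to 101145336 of GRCm38.

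Smarcd1 encodes BAF60A, a subunit of the SWI/SNF chromatin remodelling complex. Its RPKM was 11.6 and 16.5 in OT-II cells and 1.94, 1.98 and 1.78 in DKO-labelled cells. The DKO-labelled values lay close together at 1.90 ± 0.105 RPKM (SD, n = 3), while the OT-II libraries gave 14.1 ± 3.47 RPKM (SD, n = 2). Its log2 fold change was -2.58 (SE 0.15, adjusted p = 0.000175), it was called under all 19 alternatives, and with the block the adjusted p was 0.0187. Smarcd1 (Entrez 83797) lies at chr15:99702287-99713995 and overlaps 2 predicted genes, Gm34939 and Gm17241. Of 18 SWI/SNF subunit genes tested, no other was called, and their median log2 fold change was 0.02.

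Itih5 encodes a heavy chain of the inter-alpha-trypsin inhibitors, secreted proteins that bind hyaluronan. It was at 4.15 and 5.58 RPKM in OT-II cells and at 0.493, 0.584 and 0.389 RPKM in DKO-labelled cells. Every DKO-labelled library was below 1 RPKM and the groups did not overlap. The log2 fold change was -2.43 (SE 0.18, adjusted p = 0.000999), and the call was lost in 2 of 19 alternatives, the fit of the 5 libraries alone and the block (adjusted p = 0.116). Itih5 (Entrez 209378) lies at chr2:10153536-10256529.

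Bcl2l11 encodes BIM, the BH3-only protein that sets off the mitochondrial pathway of cell death in thymocytes. It was at 6.86 and 6.32 RPKM in OT-II cells and at 1.34, 2.02 and 1.49 RPKM in DKO-labelled cells. OT-II libraries were alike at 6.59 ± 0.381 RPKM (SD, n = 2), and the DKO-labelled mean was 1.62 ± 0.353 RPKM (SD, n = 3), 3.38-fold lower on the log2(RPKM + 0.5) scale. The log2 fold change was -1.76 (SE 0.17, adjusted p = 0.00577), and 15 of 19 alternatives called it. The call was lost without OT-II library 1, without DKO library 3, in the fit of the 5 libraries alone and with the block (log2 fold change -1.72, adjusted p = 0.135). In RIPmOVA hosts, where self-antigen is present, Bcl2l11 was at 34.6 and 31.7 RPKM in OT-II cells and at 7.93 and 5.51 RPKM in DKO-labelled cells (log2 fold change -2.24, adjusted p = 0.000884). Bcl2l11 (Entrez 12125, chr2:128126038-128162547) overlaps Acoxl, a gene related to acyl-CoA oxidases, which was at 1.39 and 1.37 RPKM in OT-II cells and at 0.14, 0.326 and 0.2 RPKM in DKO-labelled cells (log2 fold change -1.39, adjusted p = 0.0981). Whether strand was used in counting was not stated, so reads of overlapping genes cannot be told apart.

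Foxn3 encodes a forkhead transcriptional repressor. Its RPKM was 23.9 and 17.9 in OT-II cells and 10.1, 10.03 and 9.42 in DKO-labelled cells. The DKO-labelled values were nearly the same and lay below both OT-II values. With a log2 fold change of -1.03 (SE 0.13, adjusted p = 0.0379), it was just past both limits, and it was called in 9 of 19 alternatives, with an adjusted p of 0.185 under the block. The call was lost without OT-II library 1 and without each of the 3 DKO libraries. Foxn3 (Entrez 71375, chr12:99190081-99563667) overlaps 4 other annotated genes.

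Car11 was the gene higher in DKO-labelled cells. It encodes a carbonic anhydrase-related protein that lacks the enzyme activity of its family. In OT-II cells it was at 0.064 and 0.143 RPKM, which is 3 and 10 reads, and in DKO-labelled cells at 5.71, 3.41 and 3.13 RPKM, or 421, 208 and 237 reads. The gene was thus at the limit of detection in one genotype and clearly present in all 3 libraries of the other. Its log2 fold change was 2.89 (SE 0.27, adjusted p = 0.00489), and 15 of 18 alternatives called it. The exceptions were limma-voom, the fit of the 5 libraries alone and the block, with which the adjusted p was 0.147. The 3 carbonic anhydrase genes tested included no other at an unadjusted p under 0.05. Car11 (Entrez 12348) lies at chr7:45699171-45704687.

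Mir16-2 is a precursor of miR-16, a microRNA known for repressing cyclins and BCL2. These libraries were not made to capture mature microRNAs, so the reads report RNA across the 95 bases of the precursor (Entrez 723949, chr3:69009902-69009996 on the plus strand), which lie inside Smc4. The 2 mature sequences it gives, from RefSeq on GRCm38.p6, are shown because the reads fall on the stretch that holds both. The seed, bases 2 to 8, is in capitals.
mmu-miR-16-5p: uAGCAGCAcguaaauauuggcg
mmu-miR-16-2-3p: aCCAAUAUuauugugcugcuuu
Mir16-2 was at 4.07 and 5.47 RPKM in OT-II cells and at 0.863, 0.526 and 0.842 RPKM in DKO-labelled cells. These rest on 6 and 12 reads against 2, 1 and 2 reads, so the counts are small and the last are below the floor of 3 reads. The log2 fold change was -2.08 (SE 0.18, adjusted p = 0.00213). It was called in 15 of 19 alternatives. On the recovered reads, by limma-voom, it was not (adjusted p = 0.488), and with the block the adjusted p was 0.135.

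**Figure D2:**
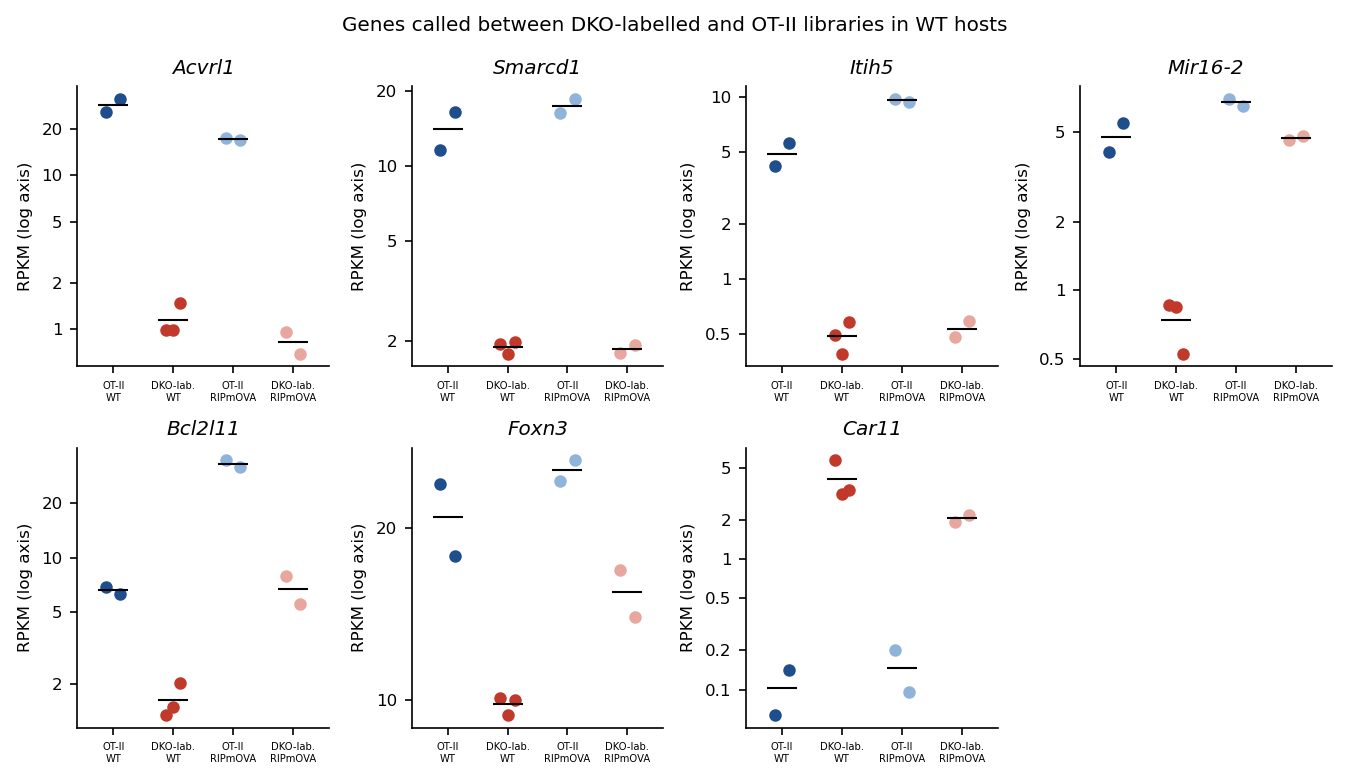
RPKM on a log axis of the 7 genes called in WT hosts, 1 dot per library and a line at the group mean. Dark dots are the 5 WT-host libraries and pale dots the 4 RIPmOVA-host libraries. In WT hosts no DKO-labelled dot overlaps the OT-II dots in any of the 7 panels. Acvrl1, Smarcd1 and Itih5 show the same gap in RIPmOVA hosts, while Mir16-2 is at 4.63 and 4.82 RPKM in DKO-labelled cells there.

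Of the genes called, those with the 2 lowest log2 fold changes lie near the Nr4a1 locus. Acvrl1 lies 0.11 Mb and Smarcd1 1.54 Mb to the proximal side of Nr4a1 on chromosome 15. Within 5 Mb of Nr4a1, 97 other genes were tested, of which 16 were lower and 7 higher at an unadjusted p under 0.05, against 3.64% and 4.25% of all genes, and the median log2 fold change was 0.03. Beside those called, Spats2 (-0.94) and Mettl7a1 (-1.13) had negative values and Amigo2 (1.41), which encodes an adhesion protein, a positive one. Genes immediately beside Nr4a1 had smaller values, with Atg101, an autophagy initiation gene, at -0.11, Acvr1b, another type I receptor of the TGF-β family, at 0.19, Grasp at 0.14 and A330009N23Rik at 0.40. Within 5 Mb of Nr4a3 on chromosome 4, 58 genes were tested, and 0 were lower and 1 higher at that limit. Around Bcl2l11 there were 2 lower and 5 higher of 83, and around Ptprc, which encodes the congenic marker CD45, 1 lower and 1 higher of 40. Flanking DNA of the strain in which a gene was targeted stays linked to it after backcrossing, and its part in these values was not tested.

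A second group of neighbours stood on chromosome 3 around Smc4, a core subunit of the condensin complexes that compact chromosomes. Smc4 was at 65.6 and 32.8 RPKM in OT-II cells and at 16.5, 14.1 and 15.8 RPKM in DKO-labelled cells (log2 fold change -1.56, SE 0.24, adjusted p = 0.0864). Ift80, which encodes a protein of ciliary transport, was at 9.74 and 5.67 RPKM against 2.06, 2.5 and 2.17 RPKM (log2 fold change -1.54, adjusted p = 0.0797). Trim59, a ubiquitin ligase gene, was at 21.7 and 11.99 RPKM against 6.61, 5.34 and 6.5 RPKM (log2 fold change -1.33, adjusted p = 0.099). None of these 3 passed the threshold, and in each the lower OT-II value, from library 2, was still above every DKO-labelled value. The uncharacterised 1110032F04Rik had a log2 fold change of -1.96 (adjusted p = 0.099), and the next gene, Kpna4, had 0.07. Of 17 other genes tested within 5 Mb of Smc4, 4 were lower at an unadjusted p under 0.05 and 0 were higher. The other condensin subunits tested had positive values, with Smc2 at 0.19, Ncapd2 at 0.27 and Ncaph at 0.66. In RIPmOVA hosts Smc4 was at 78.3 and 73.0 RPKM in OT-II cells and at 79.2 and 60.6 RPKM in DKO-labelled cells, a log2 fold change of -0.13. The difference between hosts was 1.43 for Smc4 and 1.61 for Mir16-2 on the log2 scale, with adjusted p-values of 0.383 and 0.0981, so neither passed the threshold.

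**Figure D3:**
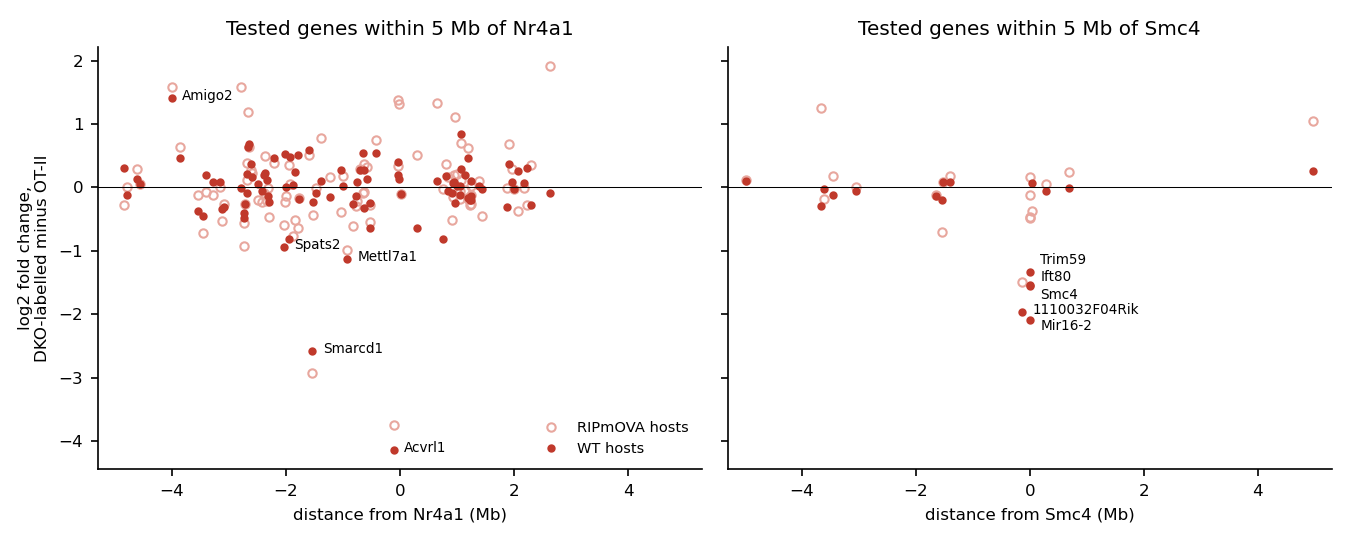
Log2 fold change of DKO-labelled against OT-II cells for each tested gene by its distance in Mb from Nr4a1 (left) and Smc4 (right), in WT hosts (filled) and RIPmOVA hosts (open). Acvrl1 and Smarcd1 are low in both hosts. The filled dots of Smc4, Ift80, Trim59, 1110032F04Rik and Mir16-2 lie between -1.33 and -2.08 and their open dots between -0.48 and 0.16, except that of 1110032F04Rik at -1.49.

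Cell cycle genes had higher values in DKO-labelled cells as a group, though none was called. Of 26 tested of 28 listed, all 26 had a log2 fold change above 0, where 51.3% of all genes did, 18 were higher at an unadjusted p under 0.05 (all genes, 4.25%) and 0 were lower. In 23 of them the DKO-labelled libraries all lay above both OT-II libraries, against 10.5% of all genes. The median was 0.80, the range 0.25 to 2.43, and all genes had a median of 0.01. By library the list's median, relative to the OT-II mean, was 0.06 and -0.06 in OT-II cells and 1.07, 0.54 and 0.78 in DKO-labelled cells. The number at that limit was 12 without DKO library 1 and 21 without DKO library 2, and the median stayed between 0.67 and 1.05 over the alternatives tried.

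Members with the largest differences act in DNA synthesis and mitosis. Rrm2, the regulated subunit of ribonucleotide reductase, was at 0.554 and 0.874 RPKM in OT-II cells and at 8.3, 3.49 and 7.24 RPKM in DKO-labelled cells (log2 fold change 2.43, SE 0.54, adjusted p = 0.183). Top2a, the topoisomerase that untangles replicated chromosomes, was at 0.618 and 0.614 RPKM against 4.6, 2.5 and 3.73 RPKM (1.85, SE 0.30, adjusted p = 0.099). Kif11, a spindle motor, was at 0.73 and 0.562 RPKM against 2.91, 1.65 and 2.31 RPKM (1.26, adjusted p = 0.309). DKO library 2 was the lowest of its group in each of these 3 genes and still above both OT-II libraries. Levels were low for such genes in both genotypes. The replication licensing genes, which were more abundant, had smaller log2 fold changes. Mcm2 was at 21.0 and 23.4 RPKM against 42.7, 32.2 and 38.1 RPKM (0.74, adjusted p = 0.129), and Mcm5 at 13.5 and 11.2 RPKM against 25.8, 17.4 and 23.1 RPKM (0.80, adjusted p = 0.219). Mki67, the proliferation antigen, was at 0.28 and 0.222 RPKM against 1.1, 0.594 and 0.49 RPKM (0.68, adjusted p = 0.705).

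Rbl2 encodes p130, a pocket protein of the DREAM complex that holds cell cycle genes silent in resting cells. It was at 18.9 and 20.1 RPKM in OT-II cells and at 32.4, 37.3 and 37.3 RPKM in DKO-labelled cells. It passed the adjusted p limit but not the limit on size (log2 fold change 0.85, SE 0.09, adjusted p = 0.0125). It overlaps Aktip, which had a log2 fold change of -0.59 (adjusted p = 0.193).

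DREAM and related factors act through a short element, the cell cycle homology region (CHR, TTTGAA or its reverse TTCAAA), often near CCAAT boxes. Both were searched for on both strands in RefSeq promoter windows from 250 bases before to 50 after the start of transcription, which were available for 9073 of the genes tested. CHR letters were found in 10 of 22 cell cycle genes with a window (45.5%), against 14.8% of all genes with a window, and CCAAT or ATTGG in 17 of 22 (77.3%) against 43.7%. Counted by window, of which a gene can have more than 1, the shares over all genes tested were 12.8% and 38.9%. Of genes higher at an unadjusted p under 0.05, 18.2% had CHR letters and 50.6% had CCAAT or ATTGG. Of those lower, the shares were 15.4% and 40.6%. The list was put together as cell cycle genes, so its own shares describe those genes and are not a result of these libraries. The windows of 3 genes that hold both are shown, with the matches in capitals, since they belong to members described above or, for Bub1b, to a spindle checkpoint gene of the list. They are Top2a at chr11:99024140-99024439 on the minus strand, Bub1b at chr2:118597961-118598260 on the plus strand and Kif11 at chr19:37376132-37376431 on the plus strand of GRCm38.p6.
Top2a: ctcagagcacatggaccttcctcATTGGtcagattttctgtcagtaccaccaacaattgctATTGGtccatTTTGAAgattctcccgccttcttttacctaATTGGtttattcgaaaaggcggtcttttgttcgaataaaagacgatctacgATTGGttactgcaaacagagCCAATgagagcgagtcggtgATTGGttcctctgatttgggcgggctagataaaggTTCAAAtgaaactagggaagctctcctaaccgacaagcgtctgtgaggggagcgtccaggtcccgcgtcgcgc
Bub1b: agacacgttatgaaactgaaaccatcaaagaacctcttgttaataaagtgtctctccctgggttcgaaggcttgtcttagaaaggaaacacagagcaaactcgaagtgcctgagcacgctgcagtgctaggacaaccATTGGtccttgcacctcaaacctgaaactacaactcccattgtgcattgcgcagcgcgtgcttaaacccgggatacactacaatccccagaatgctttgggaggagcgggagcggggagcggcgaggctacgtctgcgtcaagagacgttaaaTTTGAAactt
Kif11: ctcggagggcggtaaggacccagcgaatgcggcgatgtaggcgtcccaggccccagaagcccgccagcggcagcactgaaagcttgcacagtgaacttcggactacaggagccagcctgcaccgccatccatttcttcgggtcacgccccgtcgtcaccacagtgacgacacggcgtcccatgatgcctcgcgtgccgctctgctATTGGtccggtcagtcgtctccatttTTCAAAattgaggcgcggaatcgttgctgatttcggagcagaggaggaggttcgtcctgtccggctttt
Bub1b itself was at 1.05 and 1.29 RPKM in OT-II cells and at 3.41, 2.67 and 2.07 RPKM in DKO-labelled cells (log2 fold change 0.93, adjusted p = 0.28). The element bound by NR4A monomers, AAAGGTCA or its reverse TGACCTTT, was found in 1.32% of all genes with a window, in 7 of 325 such genes lower at an unadjusted p under 0.05 (2.15%) and in 5 of 391 of those higher (1.28%). It was found in no window of the 22 cell cycle genes or of the 5 called genes that had one. A match of letters is a description and not evidence of binding.

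Treg-associated genes leaned the other way. Of 15 tested, 12 were below 0, 7 were lower at an unadjusted p under 0.05 (all genes, 3.64%) and 1 was higher, with a median of -0.51, and none was called. The study had named Foxp3, Ikzf4, Ahr and Lrrc32 of this list as NR4A-dependent from this series, so these counts are not independent of that choice. Tnfrsf4, which encodes the costimulatory receptor OX40, was at 24.5 and 18.6 RPKM in OT-II cells and at 8.5, 10.2 and 9.98 RPKM in DKO-labelled cells (log2 fold change -1.12, SE 0.21, adjusted p = 0.11). Tnfrsf18, which encodes GITR, was at 46.0 and 43.7 RPKM against 23.7, 21.7 and 26.8 RPKM (-0.89, adjusted p = 0.101). In both TNF receptor genes all DKO-labelled libraries were below both OT-II libraries. The transcription factor genes Ahr (-1.15, adjusted p = 0.148) and Ikzf4 (-1.04, adjusted p = 0.0808) and the IL-2 receptor chain Il2ra (-1.06, adjusted p = 0.28) were also lower in every DKO-labelled library. Foxp3, the lineage factor, was at 0.29 and 0.491 RPKM in OT-II cells and at 0.037, 0.071 and 0.047 RPKM in DKO-labelled cells, or 50 and 126 reads against 10, 16 and 13 (-0.68 on the log2(RPKM + 0.5) scale, adjusted p = 0.707). Gpr83, a receptor of Treg cells, went against the list, at 10.6 and 12.3 RPKM against 31.9, 19.0 and 25.8 RPKM (1.10, adjusted p = 0.11). According to the paper, Treg cells in these chimeras came mainly from the non-transgenic donor. Without OT-II library 1 the number lower at that limit was 5, and over all alternatives it was at most 8.

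**Figure D4:**
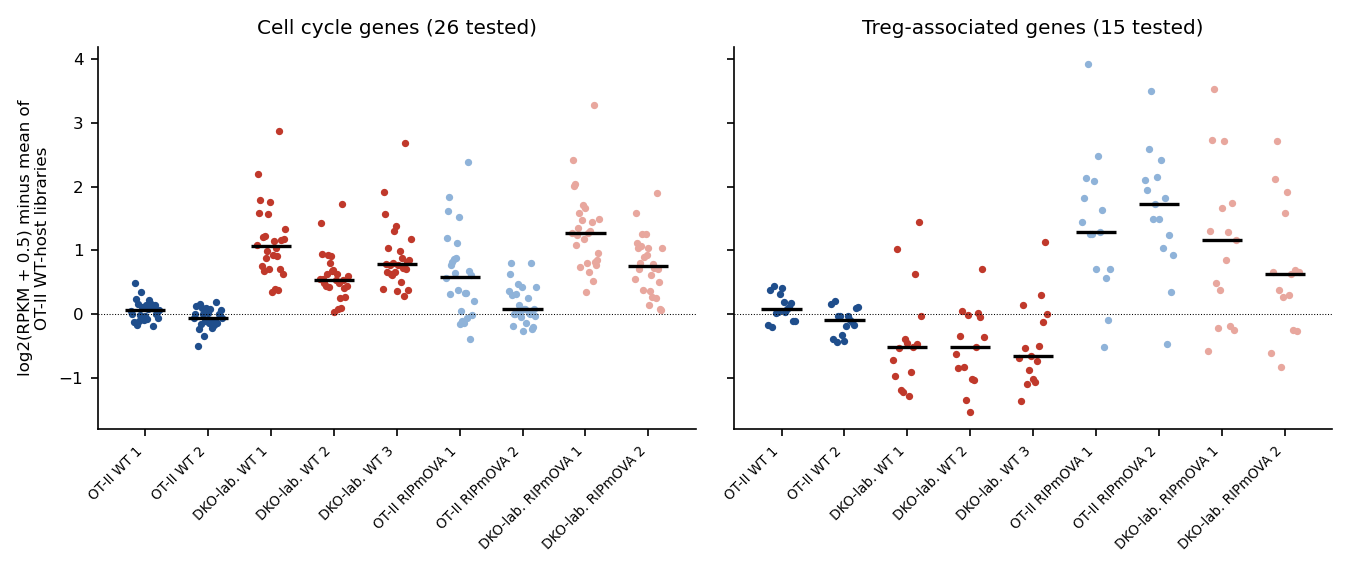
Each dot is a gene of the cell cycle list (left, 26 genes) or the Treg-associated list (right, 15 genes) in 1 library, as log2(RPKM + 0.5) minus the mean of the OT-II libraries from WT hosts; the bar is the list's median. In WT hosts the cell cycle medians of the DKO-labelled libraries are 1.07, 0.54 and 0.78. The Treg-associated medians of all 3 DKO-labelled WT-host libraries lie below 0 and those of all 4 RIPmOVA-host libraries above 0.

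Genes that report TCR signal strength were mixed. Of 19 tested, 3 were lower and 2 higher at an unadjusted p under 0.05 (all genes, 3.64% and 4.25%). None was called, and the median was -0.08. Tnfrsf9, which encodes 4-1BB, a receptor induced by strong TCR signals, was at 6.28 and 3.46 RPKM in OT-II cells and at 0.576, 0.962 and 0.793 RPKM in DKO-labelled cells (log2 fold change -2.03, SE 0.31, adjusted p = 0.0801). Cd5, whose surface level follows the strength of self-recognition, was at 99.9 and 123 RPKM against 69.5, 77.6 and 80.8 RPKM (-0.54, SE 0.15, adjusted p = 0.309). Its relative Cd6 was at 141 and 138 RPKM against 96.9, 87.9 and 99.7 RPKM (-0.56, adjusted p = 0.099). The groups did not overlap for any of these 3 genes, and none passed the adjusted threshold. Tnfrsf9 and Cd5 also belong to the genes that the study named as NR4A-dependent from this series. The 2 genes higher at that limit were the transcription factor genes Irf4 and Myc. Irf4 was at 5.6 and 13.3 RPKM in OT-II cells and at 14.6, 19.1 and 14.4 RPKM in DKO-labelled cells (0.84, SE 0.33, adjusted p = 0.574), and Myc at 11.3 and 14.2 RPKM against 14.8, 16.0 and 19.7 RPKM (0.39, SE 0.15, adjusted p = 0.555). Of 22 genes of proximal TCR signalling, 17 were below 0 (all genes, 48.7%), and the median was -0.08. At an unadjusted p under 0.05, 2 were lower (all genes, 3.64%). Among them were Cd28, the costimulatory receptor, at -0.37 (adjusted p = 0.129), and Ptprc at -0.28 (adjusted p = 0.296), the gene whose alleles mark the donors. Under quantile normalization 14 of the 22 were below 0, and 13 were without OT-II library 2.

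Beyond Bcl2l11, no gene of the apoptosis machinery was called. Of 5 pro-apoptotic BCL2 family genes tested, Bcl2l11 was the only one past an unadjusted p of 0.05. The others had log2 fold changes near 0, with the BH3-only genes Bbc3 at 0.23, Bid at -0.02 and Bad at 0.06, and the pore-forming Bax at 0.01. Of 6 pro-survival genes, 2 were lower at that limit (all genes, 3.64%) and the median was -0.45. Bcl2a1d was at 10.2 and 13.4 RPKM in OT-II cells and at 5.46, 6.83 and 6.47 RPKM in DKO-labelled cells (-0.86, adjusted p = 0.309), and Bcl2a1b had -0.71. The Bcl2a1 genes are near-identical copies, so the division of reads between them is uncertain. Bcl2 itself was at -0.06, Mcl1 at -0.20 and Bcl2l1, which encodes BCL-XL, at 0.10. Of 15 death receptor and caspase genes, 3 were lower at that limit (all genes, 3.64%). The death ligand Fasl was at 2.89 and 2.88 RPKM against 0.804, 1.02 and 1.4 RPKM (-1.12, SE 0.21, adjusted p = 0.102), its receptor Fas had -0.35 and the effector caspase gene Casp6 -0.30.

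None of the genes of thymic maturation was called. The 9 semimature-stage genes were all below 0 (all genes, 48.7%), with 1 lower at an unadjusted p under 0.05 (all genes, 3.64%). Their median was -0.19. Without DKO library 1, 7 of the 9 were below 0, and under quantile normalization 8 were. Of 19 mature-stage and egress genes, 3 were lower and 5 higher (all genes, 3.64% and 4.25%), and the median was 0.00. Klf2, the factor that turns on exit from the thymus, was at 105 and 110 RPKM in OT-II cells and at 177, 131 and 137 RPKM in DKO-labelled cells (0.45, adjusted p = 0.317), and S1pr1, the exit receptor under its control, had 0.28. The chemokine receptor Ccr7 had 0.29 and the survival cytokine receptor Il7r 0.53. The other gene higher was Nod1 (0.47), a sensor of bacterial peptidoglycan. The 3 lower were the GTPase genes Gimap4 (-0.28), Gimap5 (-0.26) and Gimap6 (-0.27), with every DKO-labelled library below both OT-II libraries and adjusted p-values of 0.601, 0.587 and 0.579. The 9 double-positive stage genes had a median of -0.04 with none at that limit. The 18 genes of CD4 lineage and T cell identity had a median of -0.02 with 2 lower (all genes, 3.64%), Ikzf3 (-0.36) and Myb (-0.70). With a covariate for sensory receptor reads, 1 was lower at that limit.

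Anergy-associated genes and inhibitory receptors had 3 of 18 lower at an unadjusted p under 0.05 (all genes, 3.64%) and a median of -0.15. The 3 were the inhibitory receptor Tigit (-1.19, adjusted p = 0.537), Cd200 (-0.60) and the phosphatase gene Dusp10 (-0.25). Tigit and Dusp10 also belong to the genes that the study named as NR4A-dependent from this series. Cytokine receptor and SOCS genes had 2 lower and 2 higher of 18 (all genes, 3.64% and 4.25%). The TGF-β and BMP list had 2 lower and 2 higher of 19, with Acvrl1 the only gene called in it and the ubiquitin ligase Smurf1, which marks receptors and SMADs for degradation, at 6.85 and 9.64 RPKM against 13.8, 14.5 and 13.5 RPKM (0.74, adjusted p = 0.118). Of 22 interferon-stimulated genes, 19 were above 0 (all genes, 51.3%) with a median of 0.15. At that limit 2 were higher (all genes, 4.25%). By library the interferon list's median was 0.62 in DKO library 1 and -0.09 and -0.13 in DKO libraries 2 and 3, so 1 library carried it. Glycolysis genes had a median of 0.00 and 1 of 16 lower.

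The study had picked gene sets from the RIPmOVA-host libraries of this series. For Rln3, Eno3, Itih5, Tnfrsf9 and Acvrl1 it also pointed to its comparison in WT hosts. Of 23 genes it named as NR4A-dependent in RIPmOVA hosts, 3 were called lower in WT hosts (all genes, 0.0519%). At an unadjusted p under 0.05, 12 were lower (all genes, 3.64%) and 0 were higher. Below 0 were 20 (all genes, 48.7%), with a median of -0.54. With the fixed host-mouse block, or in the fit of the 5 WT-host libraries alone, 1 was called. That gene was Acvrl1, which lies near Nr4a1. In the RIPmOVA hosts themselves 13 were called lower, which describes the choice since these libraries were used to select the list. Because donors and lists were shared in the study, the WT-host counts are not independent evidence of its direction. For genes named with the WT-host libraries as well, these counts also describe the choice. Of 13 genes named as higher in DKO cells in RIPmOVA hosts, 1 was higher and 2 lower at that limit in WT hosts, with a median of 0.03. Lgals1, which encodes galectin-1, was at 27.9 and 37.3 RPKM in OT-II cells and at 65.2, 51.5 and 68.9 RPKM in DKO-labelled cells (0.92, adjusted p = 0.101). Neurl3, a ubiquitin ligase gene of the same list, was at 3.64 and 2.13 RPKM against 1.23, 1.09 and 0.63 RPKM (-1.18, adjusted p = 0.214), with a log2 fold change of 1.06 in RIPmOVA hosts.

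Other genes with sizeable differences did not pass the adjusted threshold. They were taken by size from 223 genes with an unadjusted p of 0.01 or less and libraries that did not overlap, 115 lower and 108 higher. Akr1c18, the enzyme that inactivates progesterone, was at 5.5 and 2.96 RPKM in OT-II cells and at 38.8, 19.3 and 35.4 RPKM in DKO-labelled cells (log2 fold change 2.74, SE 0.54, adjusted p = 0.129). Igfbp4, an insulin-like growth factor binding protein, was at 2.86 and 3.82 RPKM against 21.3, 10.6 and 17.2 RPKM (2.09, adjusted p = 0.099). Prickle1, of the planar polarity pathway, was at 3.29 and 3.09 RPKM against 22.6, 9.71 and 11.9 RPKM (1.96, adjusted p = 0.0864). In these 3 genes DKO library 2 was the lowest of its group. Xlr3c, an X-linked imprinted-cluster gene with near-identical copies, was uneven, at 0.407 and 0.355 RPKM against 0.932, 8.7 and 11.8 RPKM (2.63, adjusted p = 0.38). F13a1, the coagulation factor XIII subunit also found in macrophages, was at 3.97 and 8.96 RPKM against 9.33, 19.9 and 17.4 RPKM (1.24, adjusted p = 0.37). Among genes lower, Lysmd2, a gene of unsettled function, was nearest to the threshold, at 5.73 and 5.37 RPKM in OT-II cells and 1.32, 1.53 and 0.714 RPKM in DKO-labelled cells (-1.88, SE 0.26, adjusted p = 0.0567). Eps8l1, an adaptor of the actin cytoskeleton, was at 3.7 and 4.11 RPKM against 0.144, 1.19 and 0.623 RPKM (-2.04, adjusted p = 0.118). Also lower in every DKO-labelled library were Cyth4, an exchange factor for ARF GTPases (-1.47), Gsto1, a glutathione transferase (-1.46), D5Ertd605e (-1.27) and Chchd10, a mitochondrial protein (-1.20), with adjusted p-values of 0.099, 0.099, 0.226 and 0.0864. Nkg7, a cytotoxic granule gene among the innate-like and NK markers, was at 2.25 and 1.6 RPKM against 0.615, 0.402 and 0.474 RPKM (-1.28, adjusted p = 0.127). All markers of that class summed to 9.13 and 5.07 RPKM in OT-II cells and to 2.56, 6.0 and 1.73 RPKM in DKO-labelled cells, so the sums overlapped.

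The RIPmOVA-host libraries gave the same contrast in separate animals with self-antigen present, with the spread of each gene estimated over both hosts. There 124 genes were called (1.07%), 65 lower (0.562%) and 59 higher (0.51%). Of the 7 genes called in WT hosts, 5 were also called there in the same direction. These were Acvrl1 (log2 fold change -3.75, adjusted p = 6.74e-05), Smarcd1 (-2.92), Itih5 (-3.29), Bcl2l11 (-2.24) and Car11 (1.98). Foxn3 had -0.70 and Mir16-2 -0.48. Of the 421 genes lower in WT hosts at an unadjusted p under 0.05, 346 were below 0 in RIPmOVA hosts (82.2%), where 51.9% of all genes below 0 in WT hosts were and 43.5% of all genes tested. Of the 492 higher, 428 were above 0 (87.0%), where 64.4% of all genes above 0 in WT hosts were and 56.5% of all genes tested. The cell cycle list had a median of 0.65 in RIPmOVA hosts with 14 of 26 genes higher at an unadjusted p under 0.05 (all genes, 13.5%) and 0 lower (all genes, 7.85%).

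Read from the other side, most genes called in RIPmOVA hosts had the same sign without self-antigen. They were chosen by a large difference in RIPmOVA hosts, so their smaller values in WT hosts are not a result. Of the 65 called lower there, 60 were below 0 in WT hosts (92.3%, all genes 48.7%), with a median of -0.38. In WT hosts 4 were called lower (all genes, 0.0519%). Of the 59 called higher in RIPmOVA hosts, 48 were above 0 in WT hosts (81.4%, all genes 51.3%), with a median of 0.31. In WT hosts 1 was called higher (all genes, 0.00864%). The difference of the genotype effect between hosts was tested for every gene, and 2 of 11569 genes passed the adjusted p and size limits, Eno3 and Rln3. For Eno3, a muscle-type enolase of glycolysis, RPKM was 4.1 and 5.22 in OT-II cells and 3.0, 2.6 and 2.82 in DKO-labelled cells of WT hosts (-0.64, adjusted p = 0.377), against 23.9 and 16.7 in OT-II cells and 1.48 and 2.08 in DKO-labelled cells of RIPmOVA hosts (-3.18). Nkg7 also had a larger value there (-3.29), as did Tnfrsf9 (-3.49), while Tnfrsf4 had -0.13 and Gpr83 -0.39.

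**Figure D5:**
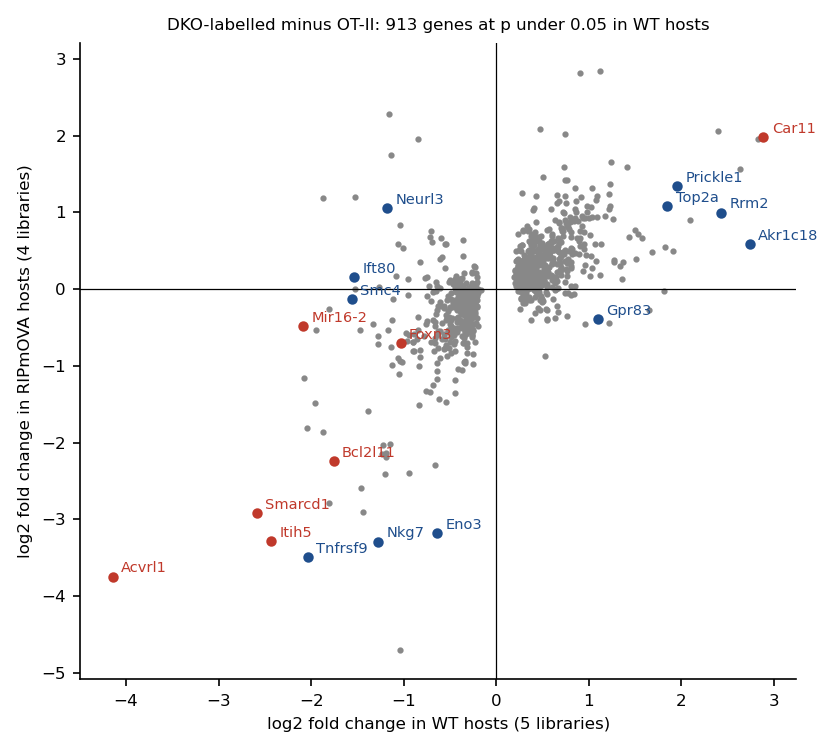
Each dot is 1 of the 913 genes at an unadjusted p under 0.05 in WT hosts, with its log2 fold change of DKO-labelled against OT-II cells in WT hosts (x axis) and in RIPmOVA hosts (y axis). Red dots are the 7 genes called in WT hosts and blue dots other genes named in the text. Most dots have the same sign on both axes, 346 of 421 on the left and 428 of 492 on the right, and Neurl3, Ift80 and Gpr83 lie outside them.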

How the data were processed

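RNA of sorted SP4 cells was sequenced in 9 libraries. According to the paper's methods, reads were mapped by the authors with STAR (mm10, GENCODE transcripts), stripped of Picard-marked duplicates and summed over exons per Entrez gene; the deposited unit is RPKM, and the authors tested groups with DESeq2. The strand setting of the counting, and which releases of the aligner and of Picard were run, are not given in the sources used here. From the deposited RPKM, reads per library were recovered from the steps between low values, of which 100% came out whole. Counting error falls with these reads, which range from 15521445 to 25051940.

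Differences were tested with limma 3.58.1 in R 4.3.3 on log2(RPKM + 0.5), with 4 group means over 9 libraries, moderated variances with an intensity trend, two-sided p-values and Benjamini-Hochberg adjustment over 11569 genes. P-values rest on the spread between libraries within the 4 groups and leave out the pairing by host mouse. In data simulated for this comparison 200 of 11569 genes were changed. On the log2 scale 88.8% of changes of 1.5 or 2 and 99% of changes of 3 or 4 were recovered. Of the calls, 2.09% were false. The simulated noise was drawn independently for each library from the fitted spread, with no effect of host mouse and no change smaller than 1.5. These rates test the procedure and are not the power or false-call rate in the real libraries. Of the genes tested, 11559 were matched to RefSeq, which gave coordinates and sequences of GRCm38.p6, the build of mm10.

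The comparison, the gene lists and the rules for naming genes were chosen with earlier results of these data known. Named were the NR4A genes, all genes called, the 10 lowest and 10 highest of the genes not called that had an unadjusted p of 0.01 or less, at least 2 RPKM in the higher group and separate libraries, list members at that p (otherwise the 2 most abundant), and genes within 0.25 Mb of Nr4a1 or Nr4a3. Rbl2, Aktip, Irf4, Myc, Nod1, the Gimap genes, Foxp3, Mki67, Kpna4, 1110032F04Rik, Spats2, Mettl7a1, Rln3, the condensin genes other than Smc4, and list members named above that p were chosen after their values were seen. The list symbols Mazr, Trbc1, Trbc2 and Hba-a2 were not matched. Alternatives were other pseudocounts (0.1 and 1), filters, scalings, libraries, blocks, a covariate for sensory receptor reads, limma-voom on recovered reads and leaving out each library.

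The labels give same-numbered OT-II and DKO libraries of WT hosts the same mouse, so the pairing comes from the labels. Deviations from group means correlated at 0.01 for mouse 1 and -0.24 for mouse 2. The deviations of 2 OT-II libraries mirror each other, so these values cannot show whether paired libraries deviate together. Over all 9 libraries, limma's estimate of the correlation within a mouse was 0.104. It was -0.045 with the mice of DKO libraries 1 and 2 of WT hosts crossed. Results with the replicate block stand beside those they change.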

Additional observations from a re-analysis of the deposited data

Results flagged for a closer look

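For 2 genes the genotype effect differed between hosts in limma's interaction test at an adjusted p of 0.0363 each. For Eno3 the log2 fold change in RIPmOVA hosts minus that in WT hosts was -2.5472. For Rln3, which encodes relaxin 3, it was -4.6528. Rln3 was at 0.407 and 1.37 RPKM in OT-II cells and 0.905, 0.782 and 0.315 RPKM in DKO-labelled cells of WT hosts (log2 fold change -0.20), and at 38.3 and 26.5 RPKM in OT-II cells and 0.617 and 0.632 RPKM in DKO-labelled cells of RIPmOVA hosts (-4.85). Both genes belong to a set that the study picked in the RIPmOVA-host libraries, and for both it also pointed to its comparison in WT hosts. With 2 or 3 libraries a group, no group was large enough to look for single samples far from the rest.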

How the results depend on the processing

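Of 20 alternatives to the processing, most left the count of 7 genes called between 5 and 8. It was 18 (13 lower, 5 higher) under median-of-ratios rescaling and 2 (2 lower, 0 higher) in the fit of the 5 libraries alone. No gene higher was called (0) with a filter at 5 RPKM or by limma-voom on recovered reads, and 2 were with the adjusted p limit alone. With the host mouse as a fixed replicate block, in which DKO library 3 has no partner, 2 were called (2 lower, 0 higher); a random block gave 8 and the crossed pairing gave 7. Leaving out each library gave 5 to 100 called, 4 to 23 lower, 1 to 77 higher and 567 to 2086 genes at an unadjusted p under 0.05. The 100, 23, 77 and 2086 came without OT-II library 2, the 567 without OT-II library 1, and 4 higher without DKO library 1. The cause was not tested. Acvrl1 and Smarcd1 were called under every alternative.

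Of 1576 recomputed log2 fold changes of 84 named genes, 1495 kept their direction and their side of the threshold, 23 lost the call, 27 gained one and 31 turned in sign, these in genes with small fold changes or of haemoglobin. Leaving out each library in turn gave ranges of Cd79b -0.5317 to 0.1284, Cd8b1 -0.0118 to 0.1328, Cst3 -0.128 to 0.0665, Dgka -0.0207 to 0.0835, Dntt -0.1393 to 0.1446, Erp44 -0.0639 to 0.1089, Ets2 -0.0985 to 0.1399, Grasp -0.0205 to 0.3184, Hba-a1 -2.618 to 1.8053, Hbb-bt -1.4232 to 0.5063, Invs -0.2526 to 0.0444, Itm2a -0.1489 to 0.0296, Nr4a1 -0.1966 to 0.3028 and Stx17 -0.3999 to 0.1508. The fixed block gave Erp44 -0.0639, Grasp -0.0205, Invs 0.0444 and Nr4a1 -0.0586. Quantile normalization gave Itm2a 0.0399 and Tcf7 0.0, and the covariate Dntt 0.0009. The medians and counts of the cell cycle and Treg-associated lists were recomputed under further settings chosen after seeing the data. Depth limits genes near the floor of 3 reads, such as Mir16-2 and, in OT-II cells, Car11, and 2 control libraries limit all others.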
